A study of Mus musculus with 10 samples.

Results

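The transcripts described here are those of 9 adipokines, the secreted signalling proteins of fat: leptin (Lep), adiponectin (Adipoq), resistin (Retn), retinol binding protein 4 (Rbp4), Nampt, chemerin (Rarres2), apelin (Apln), lipocalin 2 (Lcn2) and neuregulin 4 (Nrg4). They were picked by name, by their GENCODE mouse release M21 symbols, and each matched 1 of the 26040 Ensembl genes in the count table. All 9 had enough counts to be tested, as did 16446 genes in all. RNA was sequenced from epididymal white adipose tissue, the visceral fat beside the epididymis of male mice. The 5 knockout libraries came from C57BL/6 mice that lack the succinate receptor gene Sucnr1 in adipocytes (Ad-Sucnr1 KO), and the 5 control libraries came from C57BL/6 mice with the floxed gene (Sucnr1fl/fl). The labels name neither the Cre driver nor the age or diet of the mice, and no other allele or treatment is stated for either group.

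Adipokines tell other organs how much fat is stored and how fat is faring. Leptin is made almost only by adipocytes, in proportion to their lipid content, and acts on the brain to restrain food intake. Adiponectin is the most abundant hormone of adipocytes and raises insulin sensitivity in liver and muscle. Most of the remaining members are made by adipocytes together with other cells, such as endothelium, macrophages, neutrophils and liver.

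Libraries held 24182798 to 30603326 counts. Sucnr1 itself lay between 2.05 and 4.67 CPM (counts scaled to library size) in the knockout libraries and between 38.0 and 75.9 CPM in the controls, without overlap. Adipocyte markers were abundant in every library: the 16 listed summed to 28510 to 56110 CPM in the controls and 42110 to 61900 CPM in the knockouts. The mean log2 CPM of those 16 genes, called the adipocyte marker score below, was lowest in control libraries 6 (9.20) and 3 (9.51), against a median of 10.09 over the 10 libraries. Control library 6 also had the highest summed level of epididymal markers, 15690 CPM. Results that rest on these libraries are given with and without them. In whole tissue, fewer adipocytes and less RNA per adipocyte cannot be told apart. Of the 16 score genes, 14 had a higher mean in knockouts, none called. Acsl1 and Gpd1 did not overlap between the groups, as for 1.91% of all genes. Acsl1 ran from 1461 to 2720 CPM in controls and from 2838 to 4522 CPM in knockouts. Gpd1 ran from 194 to 348 CPM and from 395 to 754 CPM. A model with this score can thus also take out part of a difference between the groups.

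None of the 9 adipokines differed between the groups past an adjusted p of 0.05. In the edgeR quasi-likelihood test with Benjamini-Hochberg adjustment over all genes, 10 genes passed, which is 0.0608% of those tested (0.0243% higher and 0.0365% lower in knockouts). Of the adipokines, 6 had a higher and 3 a lower mean in knockouts, and their median log2 fold change was 0.31, against -0.026 over all genes. No member separated the groups without overlap, as 1.91% of all genes did. At an unadjusted p under 0.05 there were 3 members, Nampt, Apln and Retn, against 10.1% of all genes. With DESeq2, which called 1.3% of genes, no member passed either.

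**Figure D1:**
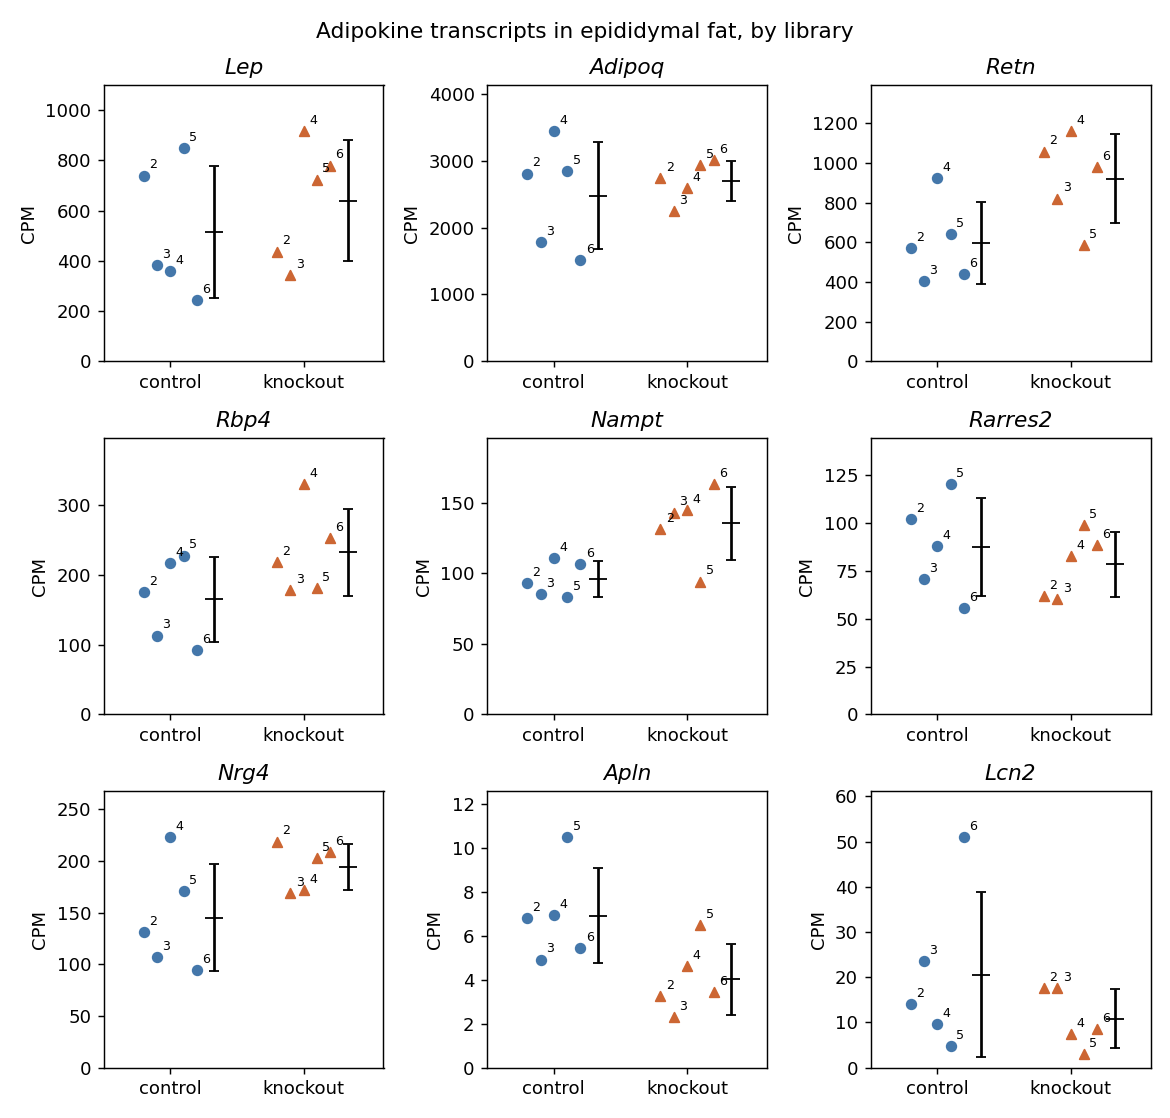
CPM of each adipokine in the 5 control (circles) and 5 knockout (triangles) libraries, numbered by replicate, with mean and SD as bars. The groups overlap for every gene, and 4 of the 5 knockout libraries lie above all controls for Nampt and below all controls for Apln.

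The adipokines spanned a wide range of levels. Levels are compared here as CPM per kilobase of annotated exon, as mean and SD over all 10 libraries. Adipoq stood highest at 1876 ± 424 (SD, n = 10), in the 99.9th percentile of tested genes, followed by Retn at 480.4 ± 168 (SD, n = 10). Lep followed at 172 ± 73.5 and Rbp4 at 148 ± 50.6 (SD, n = 10 each), and Lep was above Rbp4 in 7 of 10 libraries, so the order of these neighbours was not fixed. Rarres2 at 31.2 ± 7.89, Nrg4 at 27.9 ± 7.54 and Nampt at 22.9 ± 5.59 (SD, n = 10 each) also changed places between libraries. Lcn2 at 5.99 ± 5.32 and Apln at 1.74 ± 0.75 (SD, n = 10 each) were the least abundant. Apln rested on 67 to 278 counts per library, whereas Adipoq had 43226 to 97139.

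Leptin and adiponectin define the endocrine adipocyte, and the stretches of DNA just before their start sites are shown because both carry a match to the pattern bound by C/EBP factors, the adipocyte regulators encoded by Cebpa and its relatives. Each is 250 bases from RefSeq on build GRCm38.p6, the same coordinates as mm10, written 5′ to 3′ on the plus strand, with the match to TTNNGNAA on either strand in capitals.
Lep, chr6:29059971-29060220: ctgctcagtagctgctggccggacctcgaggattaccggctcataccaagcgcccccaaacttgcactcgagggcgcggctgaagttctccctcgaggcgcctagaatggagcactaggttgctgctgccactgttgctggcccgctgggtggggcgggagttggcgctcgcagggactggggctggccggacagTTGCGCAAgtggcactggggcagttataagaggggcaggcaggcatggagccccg
Adipoq, chr16:23146286-23146535: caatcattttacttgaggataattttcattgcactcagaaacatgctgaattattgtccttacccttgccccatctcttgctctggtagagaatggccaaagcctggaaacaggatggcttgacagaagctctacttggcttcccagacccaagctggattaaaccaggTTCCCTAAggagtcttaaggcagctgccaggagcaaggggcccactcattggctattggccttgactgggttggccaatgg
The match in Lep spans bases 55 to 48 before the start and reads the same on both strands, and that in Adipoq spans bases 81 to 74 and matches on the minus strand. The pattern occurs in 36.8% of 32851 promoters of this length, so its presence marks no difference from other genes. Neither stretch holds the E-box CACGTG, read by clock factors (6.02% of promoters), the D-box TTANGTAA (2.06%) or TATAAA (12.4%). Of the other members, 6 had a promoter in the RefSeq table. Matches to TTNNGNAA were also found in Rbp4, Lcn2 and Nrg4.

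Leptin varied widely inside each group. Lep, on chromosome 6 from 29060220 to 29073877 (mm10, plus strand), stood at 437, 343, 917, 723 and 779 CPM in knockout libraries 2 to 6 and at 739, 384, 359, 848 and 244 CPM in control libraries 2 to 6. Each group thus held low and high libraries, and 1 knockout library exceeded the highest control. The coefficient of variation was 51.0% in the controls and 37.7% in the knockouts, against medians of 19.2% and 14.7% over all genes tested. The fold change was 1.24, with a 95% interval of 0.69 to 2.25 (edgeR adjusted p = 0.775). The log2 fold change of 0.31 went to -0.026 without control libraries 3 and 6 and to -0.218 once the adipocyte marker score entered the model. It went up to 1.096 (edgeR adjusted p = 0.108) in a model with an endothelial marker score, which was added once the values were known.

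Adiponectin was steadier. Adipoq, on chromosome 16 from 23146536 to 23158028 (plus strand), stood at 2740, 2251, 2590.0, 2930 and 3003 CPM in knockout libraries 2 to 6 and at 2808, 1778, 3444, 2848 and 1516 CPM in control libraries 2 to 6. The lowest levels were those of control libraries 6 and 3, and the other controls lay above or within the knockout range. The coefficient of variation was 11.1% in the knockouts and 32.5% in the controls. The fold change was 1.09, with a 95% interval of 0.77 to 1.54 (edgeR adjusted p = 0.845), and its log2 value went from 0.12 to -0.172 without control libraries 3 and 6, to -0.013 without control library 6 alone, to -0.176 with the adipocyte score and to 0.387 with the endothelial score.

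The ratio of leptin to adiponectin transcripts within a library does not depend on how libraries are scaled. Per 100 CPM of Adipoq there were 15.9, 15.2, 35.4, 24.7 and 25.9 CPM of Lep in knockout libraries 2 to 6. The controls held 26.3, 21.6, 10.4, 29.8 and 16.1. The log2 ratio was -2.17 ± 0.51 in knockouts and -2.36 ± 0.61 in controls (exact two-sided permutation p = 0.627; SD, n = 5 each). The difference of 0.19 went to -0.035 without control library 4, which had the lowest Lep for its Adipoq.

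Resistin, whose gene in mice is expressed mainly in adipocytes and which impairs insulin action, was higher on average in the knockouts. Retn, on chromosome 8 from 3655770 to 3660110, stood at 1057, 820.2, 1161, 585 and 978 CPM in knockout libraries 2 to 6 and at 572, 406, 924, 641 and 441 CPM in the controls in the same order. All 5 knockouts lay above the control median and 3 above every control, while knockout libraries 3 and 5 lay inside the control range. The mean was 920.3 ± 225 CPM in knockouts and 597 ± 206 CPM in controls (SD, n = 5 each), a fold change of 1.54 with a 95% interval of 1.04 to 2.28 (edgeR adjusted p = 0.479, unadjusted p = 0.0331). The log2 fold change of 0.63 went to 0.363 without control libraries 3 and 6, to 0.32 in the model with the adipocyte marker score and to 0.692 with the endothelial score.

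Rbp4 carries vitamin A in blood and is made in liver and adipocytes. The gene lies on chromosome 19 from 38116629 to 38125281 (minus strand). Its levels were 219, 179, 329.9, 181 and 253 CPM in knockout libraries 2 to 6 and 176, 113, 217, 228 and 92.2 CPM in the controls. The lowest levels belonged to control libraries 6 and 3 again, and the highest to knockout library 4, which also had the highest adipocyte marker score. The fold change was 1.41 with a 95% interval of 0.92 to 2.15 (edgeR adjusted p = 0.554). Knockout library 6 held 4310 CPM of the liver gene Alb and had the second highest Rbp4, and the part of liver RNA in the Rbp4 values was not tested further. The log2 fold change went from 0.49 to 0.162 without control libraries 3 and 6, to 0.064 with the adipocyte score and to 0.938 with the endothelial score (edgeR adjusted p = 0.119).

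Neuregulin 4 is a ligand of ErbB receptors that adipocytes send to the liver. Nrg4, on chromosome 9 from 55220222 to 55326844 (minus strand), overlaps Fbxo22 on the other strand. It stood at 219, 169, 172, 203 and 209 CPM in knockout libraries 2 to 6 and at 132, 107, 223, 171 and 94.2 CPM in the controls. All 5 knockouts exceeded the control median, yet none exceeded the highest control. The fold change was 1.34 with a 95% interval of 0.95 to 1.87 (edgeR adjusted p = 0.534), and its log2 value went from 0.42 to 0.144 without control libraries 3 and 6, to 0.15 with the adipocyte score and to 0.627 with the endothelial score.

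Nampt had the smallest p of the 9. It encodes the enzyme that recycles nicotinamide into the NAD precursor NMN and is also released by adipocytes as visfatin. In knockout libraries 2 to 6 it stood at 131, 143, 145, 94.15 and 163 CPM, and in control libraries 2 to 6 at 93.1, 85.1, 111, 83.0 and 107 CPM. In 4 of the 5 knockouts it lay above every control, and knockout library 5 lay among the controls. The means were 135 ± 25.7 and 95.8 ± 12.6 CPM (SD, n = 5 each), a fold change of 1.41 with a 95% interval of 1.13 to 1.77. The edgeR unadjusted p was 0.00647 and the adjusted p 0.4, and with DESeq2 the adjusted p was 0.0695. Unlike Lep and Adipoq, Nampt kept its size without control libraries 3 and 6 (log2 fold change 0.493 against 0.498) and in the model with the adipocyte marker score (0.507). Those libraries had the lowest adipocyte marker scores, so these alternatives are not separate checks. The model with the endothelial marker score gave 0.302. Nampt, on chromosome 12 from 32819545 to 32853349 (plus strand), overlaps Gdap10 on the same strand.

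**Figure D2:**
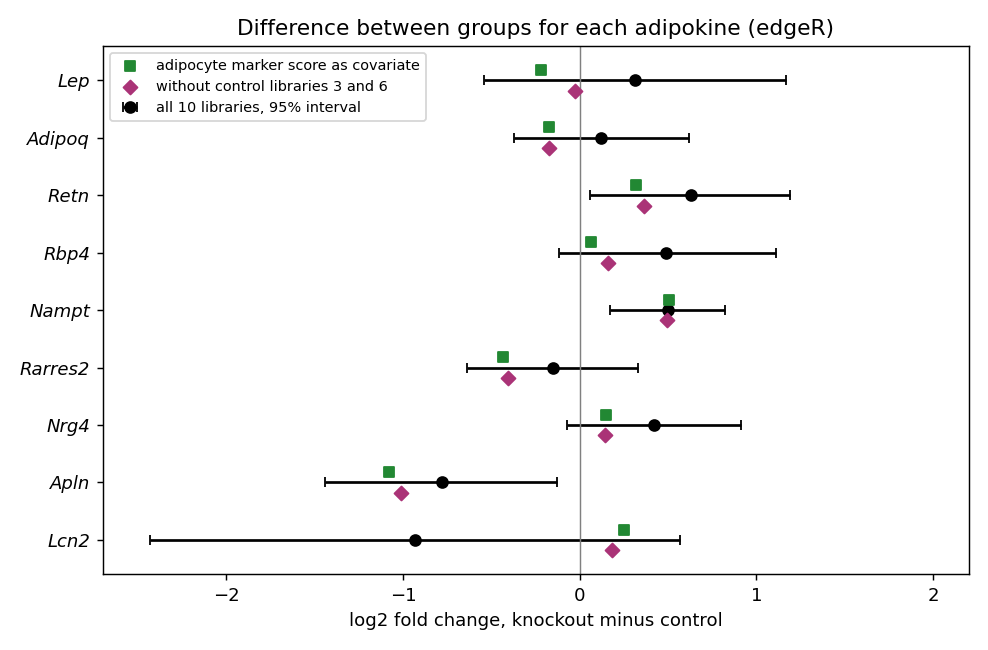
Log2 fold change, knockout minus control, of each adipokine over all 10 libraries with its 95% interval (circles), in the model with the adipocyte marker score (squares) and without control libraries 3 and 6 (diamonds). Lep, Adipoq and Lcn2 cross 0 under both alternatives, whereas Nampt stays at 0.493 to 0.507.

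Apelin, a peptide that acts on endothelium and heart through the receptor Aplnr, had a lower mean in the knockouts. Apln, on the X chromosome from 48025146 to 48034853 (minus strand), stood at 3.26, 2.29, 4.60, 6.47 and 3.45 CPM in knockout libraries 2 to 6. In control libraries 2 to 6 it stood at 6.80, 4.92, 6.95, 10.5 and 5.43 CPM. In 4 of the 5 knockouts it was below every control, and knockout library 5 lay inside the control range. The fold change was 0.58 with a 95% interval of 0.37 to 0.92 (edgeR adjusted p = 0.446, unadjusted p = 0.024).

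Endothelial cells also make apelin. All 10 listed endothelial genes had a lower mean in knockouts (median log2 fold change -0.27), and none was called. Their summed level ran from 729.6 to 1297 CPM in the controls and from 653.6 to 883.4 CPM in the knockouts. Control library 5 was highest for both apelin and these markers, and knockout library 3 was lowest for both. Control library 3 was second for the markers at 967 CPM but had 4.92 CPM of Apln, the lowest of the controls. The endothelial marker score, their mean log2 CPM, ran from 5.61 to 6.10 in knockouts and from 5.80 to 6.61 in controls. For any member, a model with this score can thus also take out part of a difference between the groups. In the model with the endothelial marker score the log2 fold change of Apln went from -0.78 to -0.274 (edgeR adjusted p = 0.451). With the adipocyte marker score it was -1.077 (edgeR adjusted p = 0.358), and without control libraries 3 and 6 it was -1.012. The part of endothelial RNA in the Apln values was not tested further.

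**Figure D3:**
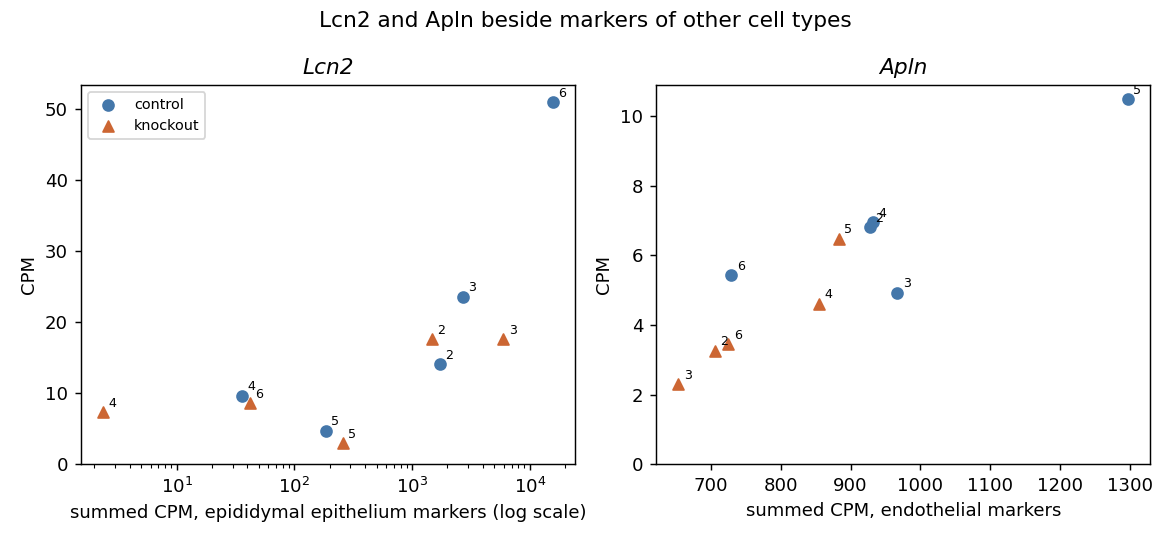
Left, CPM of Lcn2 against the summed CPM of epididymal epithelium markers on a log axis. Right, CPM of Apln against the summed CPM of endothelial markers. Circles are control and triangles knockout libraries, numbered by replicate; control 6 is at the upper right for Lcn2 (50.9 CPM) and control 5 for Apln (10.5 CPM).

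Lipocalin 2, an iron-binding defence protein of neutrophils, epithelia and inflamed fat, was the most variable of the 9, with a 17.1-fold span between libraries. Lcn2, on chromosome 2 from 32384633 to 32388252 (minus strand), stood at 17.6, 17.6, 7.34, 2.99 and 8.56 CPM in knockout libraries 2 to 6 and at 14.1, 23.6, 9.64, 4.71 and 50.9 CPM in the controls. The 5 libraries with the most Lcn2 were knockouts 2 and 3 and controls 2, 3 and 6. The same 5 had the highest summed levels of the 9 epididymal markers, 1469 to 15690 CPM, against 2.37 to 258 CPM in the others. The epididymal marker score, the mean log2 CPM of the tested markers, gave another order. Control library 3 scored 2.52, below knockout library 5 (4.70), control library 5 (4.39) and knockout library 6 (3.14). Control library 3 also had the highest summed level of smooth muscle markers, 2796 CPM. Of the 9 epididymal markers, 4 passed the filter, and all 4 had a lower mean in knockouts, none called.

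The fold change of Lcn2 was 0.52 with a 95% interval of 0.19 to 1.48 (edgeR adjusted p = 0.644), and its log2 value of -0.93 went to -0.272 without control library 6 and to 0.181 without control libraries 3 and 6. It was -0.734 with the epididymal marker score, 0.253 with the adipocyte score and -2.217 (edgeR adjusted p = 0.1) with the endothelial score. Of 9 neutrophil markers, only Ltf, Mmp9, Csf3r and S100a8 had enough counts to be tested, and Ly6g, a defining neutrophil surface gene, had 3 counts in all libraries together. The sum over all 9, 22.3 to 137 CPM in controls and 10.5 to 90.1 CPM in knockouts, peaked in control library 6, where Ltf alone made up 119 CPM. Among the knockouts the sum was highest in library 3, which also had the most epididymal markers of the knockouts (5974 CPM). Ltf reached 77.3 CPM in the knockouts. Whether the Ltf counts came from neutrophils was not tested. The part of other cells in the Lcn2 values was not tested further.

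Chemerin, a chemoattractant and adipogenic factor, gave no difference beyond its spread. Rarres2, on chromosome 6 from 48569696 to 48572789 (minus strand), overlaps Lrrc61 on the other strand. It stood at 61.7, 60.15, 82.9, 98.9 and 88.7 CPM in knockout libraries 2 to 6 and at 102, 70.6, 88.1, 120.3 and 55.5 CPM in the controls. The fold change was 0.90 with a 95% interval of 0.64 to 1.26 (edgeR adjusted p = 0.802). Its log2 value of -0.15 went to -0.405 without control libraries 3 and 6, to -0.436 with the adipocyte score and to 0.303 with the endothelial score.

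The adipokines were also set against the adipocyte marker score from library to library. Across the 10 libraries, 6 of 9 members were related to the adipocyte marker score at a permutation p under 0.05 after Benjamini-Hochberg adjustment over the 9 relations by Pearson r, and 3 of 9 (Retn, Rbp4 and Nrg4) by Spearman rho. An absolute r of at least 0.73, the smallest of the 6, was reached by 22.0% of all 16446 genes tested. Rbp4 had the closest relation (Pearson r = 0.95, permutation p = 7e-05, adjusted p = 0.00063; Spearman rho = 0.89, permutation p = 0.00118). Adipoq had r = 0.88 (adjusted permutation p = 0.0109) with rho = 0.55 (permutation p = 0.104), and Lep had r = 0.75 (adjusted permutation p = 0.0145) with rho = 0.62 (permutation p = 0.0603). Retn and Nrg4 had r = 0.80 and 0.83 (adjusted permutation p = 0.0109 each) with rho = 0.90 (permutation p = 0.00095) and 0.83 (permutation p = 0.00461). Lcn2 ran the other way, with r = -0.73 (adjusted permutation p = 0.0233) and rho = -0.54 (permutation p = 0.112). Nampt, Rarres2 and Apln had r = 0.36, 0.55 and 0.02, and rho = 0.56, 0.26 and -0.18 (permutation p from 0.0957 to 0.956).

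Control libraries 3 and 6 were the farthest from the median score. Without them none of the 9 passed by either measure over the remaining 8 libraries, and r was 0.77 for Rbp4, 0.52 for Retn, 0.51 for Lep, 0.33 for Adipoq, 0.28 for Nrg4 and -0.22 for Lcn2 (adjusted exact permutation p from 0.3 to 0.783). Spearman rho without them was 0.83 for Retn, 0.79 for Rbp4 and 0.67 for Nrg4 (adjusted exact permutation p = 0.126, 0.126 and 0.249), and 0.40 for Lep, 0.12 for Adipoq and -0.10 for Lcn2. After the mean of each group was subtracted, 7 passed over 10 libraries, with r = 0.93 for Rbp4, 0.90 for Adipoq and 0.73 for Lep (adjusted permutation p = 0.00063, 0.00184 and 0.0309). The score and the adipokines share library and depth.

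**Figure D4:**
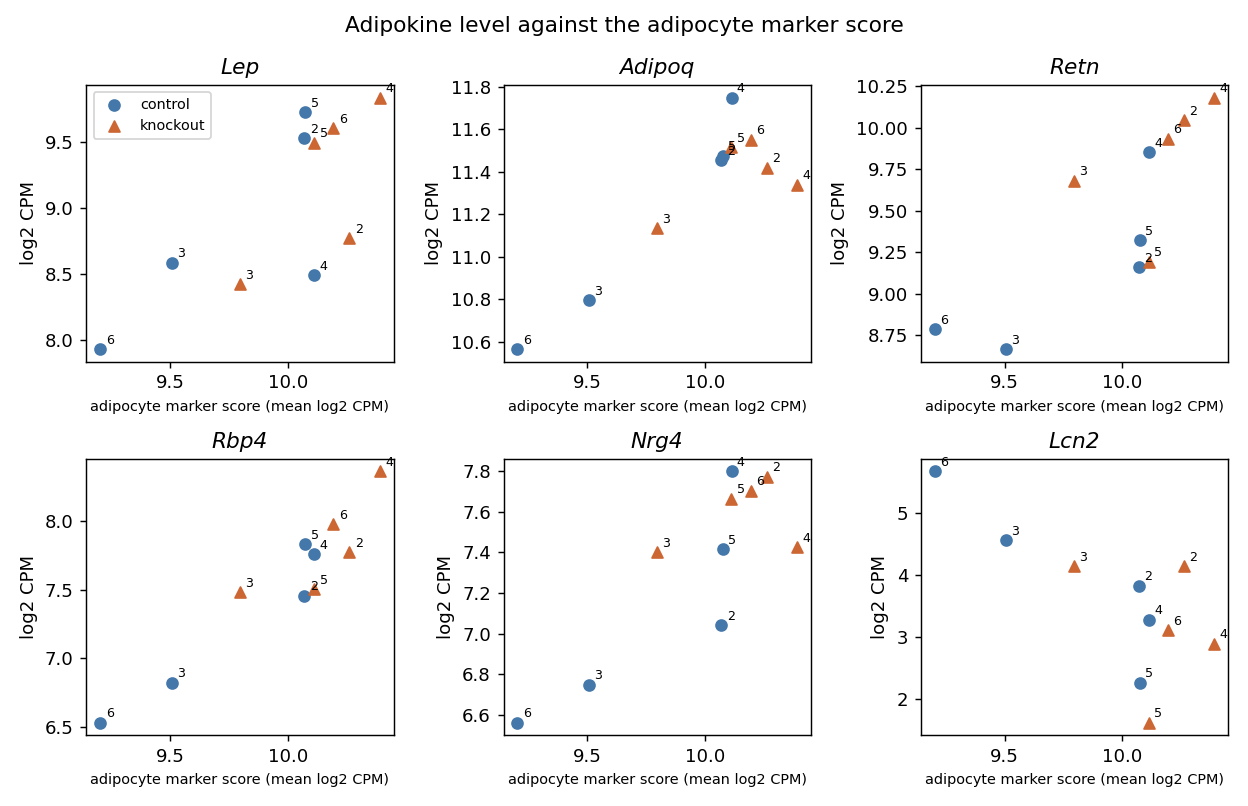
Log2 CPM of 6 adipokines against the adipocyte marker score (mean log2 CPM of 16 genes, no adipokine among them) in 10 libraries, numbered by replicate; circles are controls and triangles knockouts. Control libraries 3 and 6 lie at the left of each panel, low for Lep, Adipoq, Retn, Rbp4 and Nrg4 and high for Lcn2.

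Genes most like Lep and Adipoq across the libraries were ranked among 10394 genes whose mean log2 CPM was 3 or more, as a description. For Lep they included D430019H16Rik (Pearson r = 0.985 over 10 libraries), Flot1 (0.965), Lpgat1 (0.946) and Cops8 (0.941). For Adipoq they were Art3 (0.983), Serpine2 (0.977), Gpcpd1 (0.969), Rasa3 (0.964) and the glyceroneogenic enzyme gene Pck1 (0.961), which is also in the adipocyte score. None of these genes was called between the groups, with log2 fold changes of 0.07 to 0.24.

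Receptors for the adipokines did not pass the threshold either. Among 15 receptor and binding partner genes tested, 6 had a higher and 9 a lower mean in knockouts (median log2 fold change -0.08). Ccrl2, a chemerin-binding surface protein, stood at 3.54 ± 0.80 CPM in knockouts and 5.15 ± 1.01 CPM in controls (SD, n = 5 each; edgeR adjusted p = 0.436). Cap1, a resistin-binding protein, stood at 120.3 ± 7.89 and 130.9 ± 5.41 CPM (SD, n = 5 each; edgeR adjusted p = 0.532). Ttr, the blood partner of Rbp4, reached 194.6 CPM in knockout library 6, the library with liver RNA, and at most 2.91 CPM in the controls. The adiponectin receptor genes Adipor1 and Adipor2 had log2 fold changes of -0.08 and 0.31, and the leptin and apelin receptor genes Lepr and Aplnr had -0.43 and -0.36.

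Regulators of adipokine transcription mostly had higher means in knockouts. Of 12 tested, 11 did so and none was called (median log2 fold change 0.17), while 44.8% of all tested genes were higher. Srebf1, a lipogenic factor, stood at 285 ± 31.1 CPM in knockouts and 226 ± 19.6 CPM in controls (SD, n = 5 each; edgeR adjusted p = 0.385). Foxo1, a factor restrained by insulin, ranged from 96.0 to 168 CPM in knockouts and from 53.1 to 92.3 CPM in controls, without overlap, as for 1.91% of all genes (edgeR adjusted p = 0.432). Cebpa, a master regulator of adipocytes whose pattern is printed above, stood at 628 ± 120.1 and 475 ± 122 CPM (SD, n = 5 each; edgeR adjusted p = 0.526). The adipocyte markers had the same direction, with 14 of 16 higher and a median log2 fold change of 0.36, none called.

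Genes that fold and release adiponectin were mixed: 2 of 7 had a higher mean in knockouts and 5 a lower (median log2 fold change -0.18), none called. Sirt1, a deacetylase that affects adiponectin release, stood at 35.7 ± 1.95 CPM in knockouts and 31.3 ± 0.64 CPM in controls (SD, n = 5 each, edgeR adjusted p = 0.4). The groups did not overlap, as for 1.91% of all genes, but lay close (at least 32.5 CPM in knockouts, at most 32.0 CPM in controls). P4hb, a protein disulfide isomerase, and Hspa5, a chaperone of the endoplasmic reticulum, had log2 fold changes of -0.23 and -0.51 (edgeR adjusted p = 0.493 and 0.608), and both were highest in control library 6.

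Paralogs of adiponectin and resistin were near even: of 9 tested, 5 had a higher mean in knockouts and 4 a lower (median log2 fold change 0.01), none called. Retnla, a resistin-like gene of alternatively activated macrophages, stood at 251 CPM in knockouts and 206 CPM in controls (edgeR adjusted p = 0.592). C1qtnf12 and C1qtnf9, relatives of adiponectin, had log2 fold changes of 0.23 and -0.28. Among 14 further adipokine genes tested, 4 means were higher and 10 lower (median log2 fold change -0.09), none called. Tnf, the inflammatory cytokine, stood at 0.42 ± 0.18 CPM in knockouts and 0.91 ± 0.31 CPM in controls (SD, n = 5 each; edgeR adjusted p = 0.432), a level resting on 186 counts over all libraries. Ccl2, a monocyte chemoattractant, had a log2 fold change of -0.42, and Cfd, the abundant adipocyte protease adipsin, had 0.20.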

How the data were processed

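The authors deposited unnormalized counts for each Ensembl gene. The submitters' processing notes name STAR 2.5.2 and mm10. How strands were treated in counting is not stated in the sources used here, so members that overlap genes on the other strand (Nrg4, Rarres2) are uncertain. For Nampt the overlapping gene, Gdap10, is on the same strand and is not in the count table. Whether Gdap10 reads are part of the Nampt counts was not tested. Per the labels' protocols, 300 ng of total RNA entered a stranded library kit. GENCODE M21 gave symbols for 25995 of 26040 identifiers and mm10 coordinates.

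Columns were matched to samples by title and grouped by the condition label. Genes were filtered with filterByExpr (minimum count 10, minimum total 15), scaled by TMM and fitted with the robust quasi-likelihood test of edgeR 4.0.16 (R 4.3.3), with only the group in the model; p-values were adjusted over all 16446 genes tested. Intervals are 95% and use standard errors derived from the fold change and its F statistic. Log2 CPM used a prior count of 2. Alternatives used limma 3.58.1 and DESeq2 1.42.0. No pair of libraries agreed within sampling noise (chi-square per degree of freedom of at least 24.2). The steps were tested on simulated counts, with 50 changed genes at each fold. They recovered 8% of 1.5-fold, 42% of 2-fold, 74% of 4-fold and 84% of 8-fold changes. A fold change of the size seen for most members would thus often be missed at this threshold.

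The members and lists were chosen with earlier results of these data known. All members were named, with the 3 smallest p of each pathway list and the 5 genes most like Lep and Adipoq, and some genes this takes are not reported here; Adipor1, Adipor2, Lepr, Aplnr and Cfd were added for their roles, and Alb, Ltf, Mmp9, Csf3r, S100a8 and Ly6g after their values were seen. Macrophage (1 of 9 higher), progenitor (3 of 9), mesothelial (2 of 8), smooth muscle (0 of 7) and hepatocyte (10 of 10) marker lists held no called gene. Smooth muscle markers summed to 2796 CPM in control library 3.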

Additional observations from a re-analysis of the deposited data

How the results depend on the processing

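No adipokine passed the threshold under any of 24 alternatives, which were other scalings, tools, filters, covariates and left-out libraries, with the endothelial score and the epididymal score alone added after seeing the data. Retn, Rbp4, Nampt, Apln and Nrg4 kept their direction in all of them. Lep turned with sample weights (-0.023), the adipocyte score (-0.218) and without control libraries 3 and 6 (-0.026). Adipoq turned under the same 3 (-0.009, -0.176 and -0.172) and without control library 6 (-0.013), with a range of -0.013 to 0.273 when 1 library was left out. Lcn2 turned with the adipocyte score (0.253) and without control libraries 3 and 6 (0.181), and Rarres2 with the endothelial score (0.303); the causes were not tested. The Lep to Adipoq difference ranged from -0.035 to 0.343 when 1 library was left out. The number of members related to the adipocyte score went from 6 to 0 without control libraries 3 and 6, where fewer libraries were tested, and the r of Nampt turned to -0.03 once group means were subtracted.

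Over all genes, the 10 calls became 213 with DESeq2, 27 with sample weights, 6 without control libraries 3 and 6, 6 with the endothelial score, and 3 to 18 when 1 library was left out. Same-numbered libraries were not uniformly alike: the correlations of their deviations were 0.377, -0.113, 0.632, 0.436 and -0.096 for numbers 2 to 6. Of the 5 knockouts, 2 correlated best with their own number. Whether the numbers mark pairs was not tested. With the replicate block 4 genes and no member were called, with Nampt at 0.484 and Lep at 0.364. In the paired test the Lep to Adipoq difference was 0.191 (exact sign-flip permutation p = 0.812).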

Other observations

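Several partner genes of the adipokine system were highest in a library that also carried RNA of another tissue. Erbb3, a receptor of the family that binds neuregulins, reached 136 CPM in control library 6, the library richest in epididymal markers. In the knockouts Erbb3 ran from 4.50 to 81.7 CPM. Hspa5 reached 922 CPM in control library 6, against at most 408 CPM in the knockouts. C1qtnf3 and C1qtnf4 were also highest there, at 4.63 and 4.73 CPM. Itln1 and Serpina12, which encode omentin and vaspin, had 2 and 52 counts over all 10 libraries and were not tested, as were Il6 (28 counts) and Fgf21 (114 counts). No library was set apart by its gap to the others for any adipokine or for the Lep to Adipoq ratio in either group, in 20 groups checked.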
